A study of Homo sapiens with 12 samples.

Results

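ATF4, its partner and target CHOP (gene symbol DDIT3) and 8 further effectors of the cellular stress response, TRIB3, ATF3, CHAC1, SESN2, DDIT4, NUPR1, ASNS and PPP1R15A, were followed through knockdown of 3 genes of citrate handling in pancreatic cancer cells. The 10 genes were taken by name from a table of 70116 genes, by matching Ensembl identifiers to symbols, and 9 of them had enough reads to be tested. These genes, and the lists of related genes below, were chosen with earlier results of these data known. Shares of all genes given beside their counts are therefore a description only. The cells were MiaPaCa-2, an established human pancreatic cancer line. Polyadenylated RNA was sequenced after transfection with a control siRNA (siControl) or with siRNA against SLC25A1, the mitochondrial citrate carrier (siSLC25A1), ACLY, the ATP citrate lyase that makes cytosolic acetyl-CoA (siACLY), or ACO1, the cytosolic aconitase that doubles as iron regulatory protein 1 (siACO1), with 3 libraries per group. All 12 libraries are of this 1 cell line, all cells were transfected, and the labels name the growth medium only as the one the supplier recommends. The time after transfection and the number of siRNAs per target are not given, so effects of losing the target and effects of the siRNA on other transcripts cannot be told apart. The labels do not say that replicates came from separate cultures, so the p-values below measure only the spread between these libraries, which may be technical.

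ATF4 is the central transcription factor of the integrated stress response. When a kinase that senses amino acid shortage, misfolded protein, double-stranded RNA or heme deficiency phosphorylates eIF2, most translation slows while translation of ATF4 mRNA rises, so the level of ATF4 mRNA measured here is not the level of ATF4 protein. ATF4 binds composite C/EBP-ATF sites, often with C/EBP partners, and switches on genes for amino acid supply, for glutathione turnover and for the factors CHOP, ATF3, TRIB3 and NUPR1. Several of these act back on the response: PPP1R15A (GADD34) brings a phosphatase to eIF2, and TRIB3 binds ATF4 and CHOP and limits their activity.

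The promoters of some of these genes carry the letters of such sites. Whether these letters relate to the changes in the knockdowns was not tested. The core TGATGNAA of the C/EBP-ATF site was searched on both strands in the RefSeq promoter windows (GRCh38.p14, from 250 bases before to 50 after each start). It was found in 3 of the 9 members that have a window, ATF3, CHAC1 and ASNS, that is in 3 of their 15 windows, and in 3.62% of all 35116 windows. These 9 members include SESN2. NUPR1 has no window and was not searched. The palindrome TGACGTCA, the cyclic AMP response element, was found in PPP1R15A alone among the members (1 of 15 windows) and in 1.85% of all windows. The AP-1 site TGANTCA was found in DDIT3 alone (2 of 15 windows, the same site in both) and in 7.71% of all windows. The motifs do not overlap at these sites. Capitals mark the motif, each line runs 5′ to 3′ on the strand of the gene, and in CHAC1 the motif reads as its reverse complement.
ATF3: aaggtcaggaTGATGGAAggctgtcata
CHAC1: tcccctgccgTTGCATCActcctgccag
ASNS: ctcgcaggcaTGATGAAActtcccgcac
PPP1R15A: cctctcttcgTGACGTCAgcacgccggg
DDIT3: cgcgcgcgcaTGACTCAcccacctcct
Positions count from the RefSeq start of the window that holds the motif, and a member can have more than 1 start. These starts need not match the ends of the gene spans given below. The CHAC1, ASNS and DDIT3 motifs lie inside those spans. With the first transcribed base as position 0, the ATF3 motif spans positions -191 to -184 (stretch shown: chr1:212565206-212565233, plus strand). The CHAC1 motif spans -209 to -202 (chr15:40953252-40953279, plus strand). The ASNS motif spans -68 to -61 (chr7:97872459-97872486, minus strand), in the part of that promoter known as its nutrient-sensing response element. The PPP1R15A motif spans -58 to -51 (chr19:48872353-48872380, plus strand) and the DDIT3 motif -238 to -232 (chr12:57520739-57520765, minus strand). From the other DDIT3 start the same motif spans -241 to -235. These matches describe the letters only, and binding was not measured here.

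Libraries held 24159424 to 43792811 gene counts. Each targeted transcript was reduced in its own group: SLC25A1 fell to 8.75%, ACLY to 7.24% and ACO1 to 3.72% of the siControl mean. The keratins KRT8 and KRT18 and vimentin were high in every library, whereas the epithelial genes EPCAM and CDH1 had 5 and 7 counts over all 12. The leukocyte genes PTPRC and CD3E and the acinar genes PRSS1, CPA1 and AMY2A had 0 counts, and COL1A2, a collagen gene of fibroblasts, was present while DCN and LUM had 5 and 0. Levels below are CPM, counts divided by library size after scaling by trimmed means (TMM), and a log2 fold change is the log2 ratio of such levels from the fit. In bulk RNA, fewer cells with a transcript and less of it per cell cannot be told apart.

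SESN2 (ENSG00000130766.5), a stress-induced inhibitor of mTORC1, could not be assessed. It had 3 counts in all 12 libraries, 1 in siControl and 2 in siACLY. Its neighbours on chromosome 1 ATP5IF1 and MED18, both within 100 kb, had 0 and 1 counts, while DNAJC8 and PHACTR4, also within 100 kb, had 51296 and 24012. RPS25, a gene of the ribosome, had 20 counts in all. These genes were picked out after their values were seen. Since genes that every cell uses were also near 0 in the table, the SESN2 count is not read as its expression, and the cause was not tested.

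Per kilobase of merged exon in siControl, the 9 tested members covered a wide range of abundance. ATF4 stood at 137 and DDIT4 at 132.5 CPM per kb, followed by TRIB3 at 35.05, PPP1R15A at 16.46, CHAC1 at 13.12 and DDIT3 at 9.628. ASNS at 2.365, ATF3 at 1.561 and NUPR1 at 0.1282 were the lowest. ASNS, DDIT4 and DDIT3 share 44.56%, 41.16% and 39.63% of their exon bases with other genes. Counting rules are not given in the sources used here, so reads may have been dropped and this order is approximate. ATF4 rested on 6099 to 16567 counts per library and NUPR1 on 16 to 92, so NUPR1 has the widest errors.

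ATF4 mRNA was higher in siSLC25A1 than in siControl, higher by less in siACLY, and lower in siACO1. The gene (ENSG00000128272.18) lies on chromosome 22 (GRCh38, GENCODE 29 annotation, 39519695 to 39522685, plus strand). Its level was 357, 327 and 349 CPM in the siControl libraries and 427, 460 and 439 CPM in siSLC25A1. It was 372, 395 and 401 CPM in siACLY and 245, 237 and 270.3 CPM in siACO1. The 4 groups did not overlap in any pair: every siSLC25A1 library was above every siACLY library, those above every siControl library and those above every siACO1 library. By edgeR's quasi-likelihood test with Benjamini-Hochberg adjustment over 16197 genes, the log2 fold change against siControl was 0.36 (SE 0.05, adjusted p = 1.35e-06) in siSLC25A1, 0.18 (SE 0.05, adjusted p = 0.00350) in siACLY and -0.46 (SE 0.05, adjusted p = 7.76e-09) in siACO1. Of the 31-base words of ATF4 transcripts, 29.73% also occur in processed pseudogenes of ATF4, of which ATF4P3 had 30 counts and ATF4P4 21 over all libraries, against 21825 for ATF4 in the group with the fewest. Counting rules are not given in the sources used here, so reads shared with the pseudogenes may have been dropped. The ATF4 count, and the percents of it given below, are therefore approximate.

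**Figure D1:**
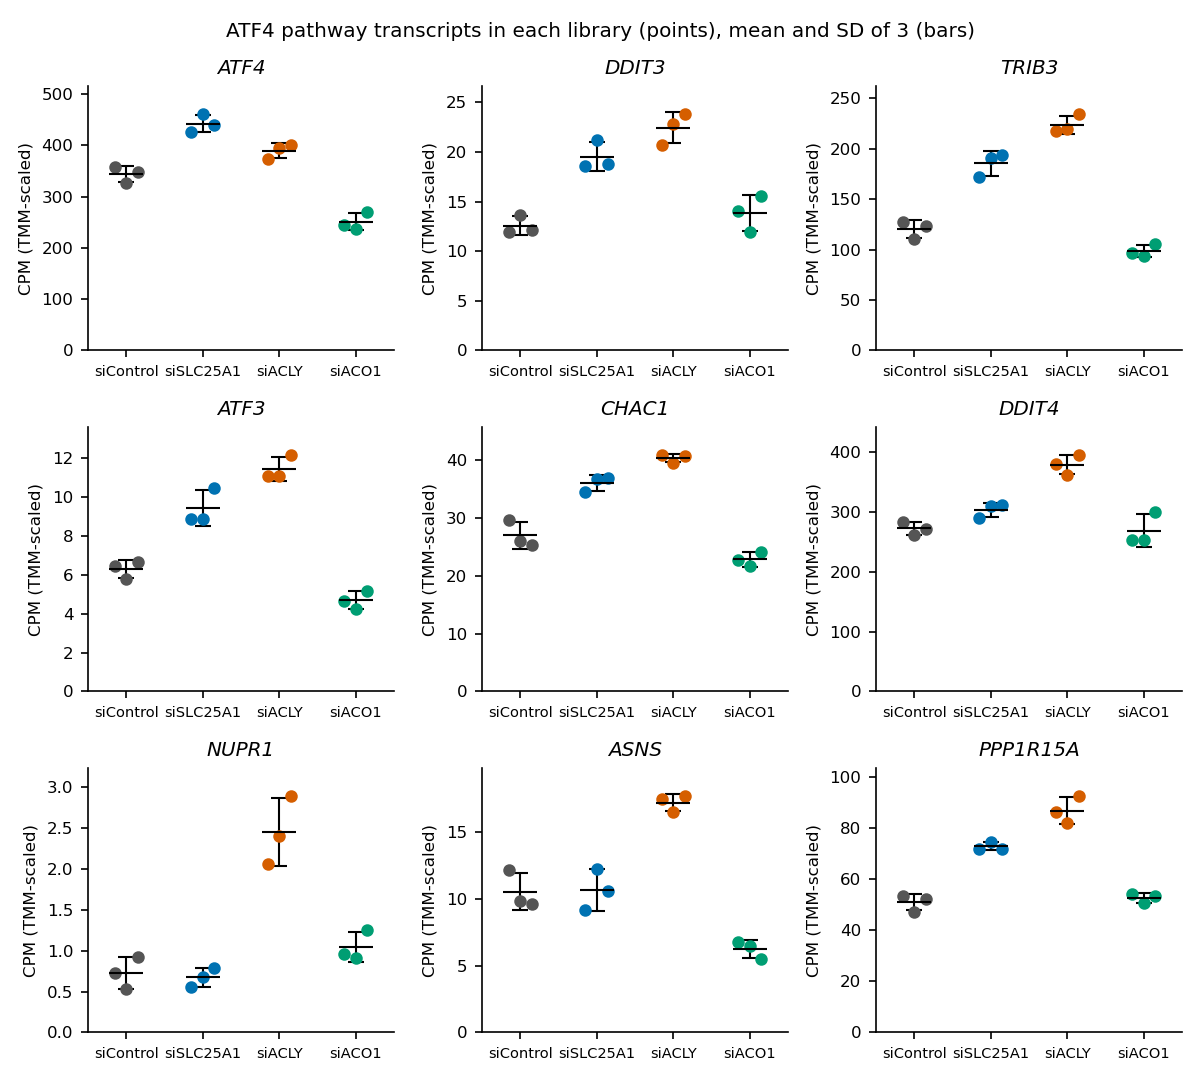
TMM-scaled level in CPM of the 9 tested members (y axis, from 0, separate scale in each panel) in the 3 libraries of each group, with a line at the group mean. ATF4 is highest in siSLC25A1 (mean 442 CPM) and lowest in siACO1 (251 CPM), whereas the other 8 members have their highest mean in siACLY.

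CHOP and its close partners responded in both SLC25A1 and ACLY knockdown. DDIT3 encodes CHOP, a bZIP factor that promotes cell death under lasting ER stress (ENSG00000175197.13, chromosome 12, 57516588 to 57521737, minus strand). Its level was 11.9, 13.7 and 12.2 CPM in siControl, 18.6, 21.2 and 18.8 CPM in siSLC25A1, 20.7, 22.8 and 23.8 CPM in siACLY and 14.05, 12.0 and 15.5 CPM in siACO1. Every library of siSLC25A1 and siACLY lay above every siControl library, the siSLC25A1 and siACLY libraries overlapped each other, and those of siACO1 overlapped siControl. The log2 fold change was 0.63 (SE 0.09, edgeR adjusted p = 6.34e-06) in siSLC25A1 and 0.83 (SE 0.09, adjusted p = 1.59e-08) in siACLY, and it did not pass in siACO1 (0.14, SE 0.09, adjusted p = 0.268). DDIT3 shares 39.63% of its exon bases with MARS, MBD6 and 1 further gene. Counting rules are not given in the sources used here, so some of its reads may have been dropped or assigned elsewhere.

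TRIB3, the pseudokinase that restrains ATF4 and CHOP, moved in all 3 knockdowns (ENSG00000101255.12, chromosome 20, 362835 to 397559, plus strand). It stood at 128, 110.3 and 123 CPM in siControl, 172, 191 and 194 CPM in siSLC25A1, 217, 219.8 and 234 CPM in siACLY and 96.9, 93.3 and 105 CPM in siACO1. Its 4 groups were separate in the order siACLY, siSLC25A1, siControl, siACO1. The log2 fold changes were 0.62 (SE 0.06, edgeR adjusted p = 1.66e-08), 0.89 (SE 0.06, adjusted p = 1.27e-11) and -0.29 (SE 0.06, adjusted p = 0.000308) in siSLC25A1, siACLY and siACO1. PPP1R15A, which lets translation resume after stress, shared the first 2 steps but not the last (ENSG00000087074.9, chromosome 19, 48872392 to 48876057, plus strand). It stood at 53.3, 47.2 and 52.2 CPM in siControl, 71.7, 74.6 and 71.9 CPM in siSLC25A1, 86.0, 81.8 and 92.3 CPM in siACLY and 54.3, 50.5 and 53.2 CPM in siACO1. The siACO1 libraries overlapped the controls, and the other 2 groups were each separate. Its log2 fold change was 0.52 (SE 0.05, edgeR adjusted p = 2.80e-08) in siSLC25A1, 0.77 (SE 0.05, adjusted p = 2.84e-12) in siACLY and 0.05 (SE 0.05, adjusted p = 0.521) in siACO1.

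ATF3 and CHAC1 followed the order of TRIB3. ATF3 is a bZIP repressor and activator induced by many stresses (ENSG00000162772.18, chromosome 1, 212565334 to 212620777, plus strand). It stood at 6.48, 5.80 and 6.65 CPM in siControl, 8.89, 8.89 and 10.5 CPM in siSLC25A1, 11.1, 11.1 and 12.1 CPM in siACLY and 4.67, 4.23 and 5.17 CPM in siACO1. All 4 groups were separate, and the log2 fold change was 0.58 (SE 0.11, edgeR adjusted p = 0.000212) in siSLC25A1, 0.86 (SE 0.10, adjusted p = 1.56e-07) in siACLY and -0.42 (SE 0.12, adjusted p = 0.00483) in siACO1. CHAC1 degrades glutathione and is a transcript much used as a reporter of ATF4 activity and of ferroptosis inducers that deplete cystine (ENSG00000128965.13, chromosome 15, 40952962 to 40956519, plus strand). It stood at 29.7, 26.1 and 25.3 CPM in siControl, 34.6, 36.8 and 37.0 CPM in siSLC25A1, 40.9, 39.5 and 40.8 CPM in siACLY and 22.8, 21.6 and 24.1 CPM in siACO1. Its groups were also separate, with smaller steps: log2 fold changes of 0.42 (SE 0.06, edgeR adjusted p = 1.82e-05), 0.58 (SE 0.06, adjusted p = 2.16e-08) and -0.24 (SE 0.07, adjusted p = 0.00435) in siSLC25A1, siACLY and siACO1. The siACO1 call of CHAC1 was lost without siControl replicate 1 (log2 fold change -0.17, edgeR adjusted p = 0.0666).

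DDIT4, NUPR1 and ASNS had the largest differences between ACLY and SLC25A1 knockdown. DDIT4 (REDD1) is an inhibitor of mTORC1 that ATF4, hypoxia and glucocorticoids can each induce (ENSG00000168209.6, chromosome 10, 72273920 to 72276036, plus strand). It stood at 284, 261 and 272 CPM in siControl, 290.5, 309.6 and 312 CPM in siSLC25A1, 379.8, 363 and 395 CPM in siACLY and 254, 253 and 300.3 CPM in siACO1. Only siACLY was well above the rest. The siSLC25A1 libraries lay just above the controls, and siACO1 overlapped the controls through its replicate 3. The log2 fold change was 0.48 (SE 0.05, edgeR adjusted p = 3.52e-07) in siACLY, 0.16 (SE 0.05, adjusted p = 0.0484) in siSLC25A1 and -0.02 (SE 0.05, adjusted p = 0.825) in siACO1. The siSLC25A1 call was lost without siControl replicate 2 or 3, siSLC25A1 replicate 2 or 3, or siACLY replicate 1 (log2 fold change 0.13 to 0.16, edgeR adjusted p = 0.0603 to 0.191). Without siACO1 replicate 3, DDIT4 was called lower in siACO1 (-0.11, edgeR adjusted p = 0.0289). DDIT4 shares 41.16% of its exon bases with the antisense gene DDIT4-AS1, and whether counting used strand is not given in the sources used here, so reads of the pair cannot be told apart.

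NUPR1, a small chromatin protein that ATF4 induces in stressed pancreas and that restrains ferroptosis, rose in ACLY knockdown (ENSG00000176046.9, chromosome 16, 28532708 to 28539174, minus strand). It stood at 0.726, 0.527 and 0.929 CPM in siControl, 0.558, 0.684 and 0.788 CPM in siSLC25A1, 2.07, 2.41 and 2.89 CPM in siACLY and 0.966, 0.910 and 1.25 CPM in siACO1. The siACLY libraries, with 62 to 92 counts, lay above all 9 others, with 16 to 39. The log2 fold change of 1.76 (SE 0.25, edgeR adjusted p = 2.39e-06) was the largest of any member in any comparison with siControl. The changes of -0.09 (SE 0.31, adjusted p = 0.876) in siSLC25A1 and 0.54 (SE 0.28, adjusted p = 0.134) in siACO1 did not pass by edgeR, and at these counts their errors are wide. Of its 31-base words 14.65% also occur in other genes.

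ASNS makes asparagine and is the textbook amino acid response target of ATF4 (ENSG00000070669.17, chromosome 7, 97852118 to 97872542, minus strand). It stood at 12.1, 9.85 and 9.61 CPM in siControl, 9.17, 12.3 and 10.6 CPM in siSLC25A1, 17.5, 16.5 and 17.7 CPM in siACLY and 6.76, 6.50 and 5.49 CPM in siACO1. The siSLC25A1 libraries spanned the range of the controls, all siACLY libraries above and all siACO1 libraries below. The log2 fold change was 0.71 (SE 0.10, edgeR adjusted p = 2.40e-06) in siACLY and -0.76 (SE 0.11, adjusted p = 4.25e-06) in siACO1, the largest fall of any member. In siSLC25A1 it was 0.01 (SE 0.11, edgeR adjusted p = 0.965), in the libraries where ATF4 mRNA was highest. ASNS shares 44.56% of its exon bases with a same-strand processed transcript that had 194 counts in all. As for DDIT3, some of its reads may have been dropped or assigned elsewhere.

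Counted over the members, all 9 that were tested were called higher in siACLY, against 18.4% of all genes tested. In the same group 0 were called lower (18.3% of all genes). In siSLC25A1, 7 of 9 were called higher, all but NUPR1 and ASNS, against 10.3% of all genes, and 0 lower (9.27%). In siACO1, 5 of 9 were called lower, ATF4, TRIB3, ATF3, CHAC1 and ASNS, against 19.3% of all genes, and 0 higher (17.8%). Each of these counts of 0 was also 0 at an unadjusted p under 0.05 by edgeR, and 0 by DESeq2. The median log2 fold change of the 9 members was 0.42 in siSLC25A1, 0.77 in siACLY and -0.24 in siACO1, against medians of all genes within 0.01 of 0. Libraries did not overlap siControl for the same numbers of members: 7 lay above in siSLC25A1 (18.4% of all genes), 9 above in siACLY (25.5%) and 5 below in siACO1 (23.4%). When a log2 fold change of at least 0.5 was also required, 4 members were called higher in siSLC25A1 (DDIT3, TRIB3, ATF3 and PPP1R15A, against 2.03% of all genes) and 7 in siACLY (all but ATF4 and DDIT4, against 7.48%). At that size 1 was called lower in siACO1 (ASNS, against 5.14% of all genes). The 3 comparisons share the siControl libraries. ATF4, TRIB3, ATF3 and CHAC1 were called higher in siSLC25A1 and siACLY and lower in siACO1. ASNS was called higher in siACLY and lower in siACO1 but was not called in siSLC25A1. DDIT3, DDIT4 and PPP1R15A were called higher in both and were not called in siACO1, and NUPR1 was called in siACLY alone.

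**Figure D2:**
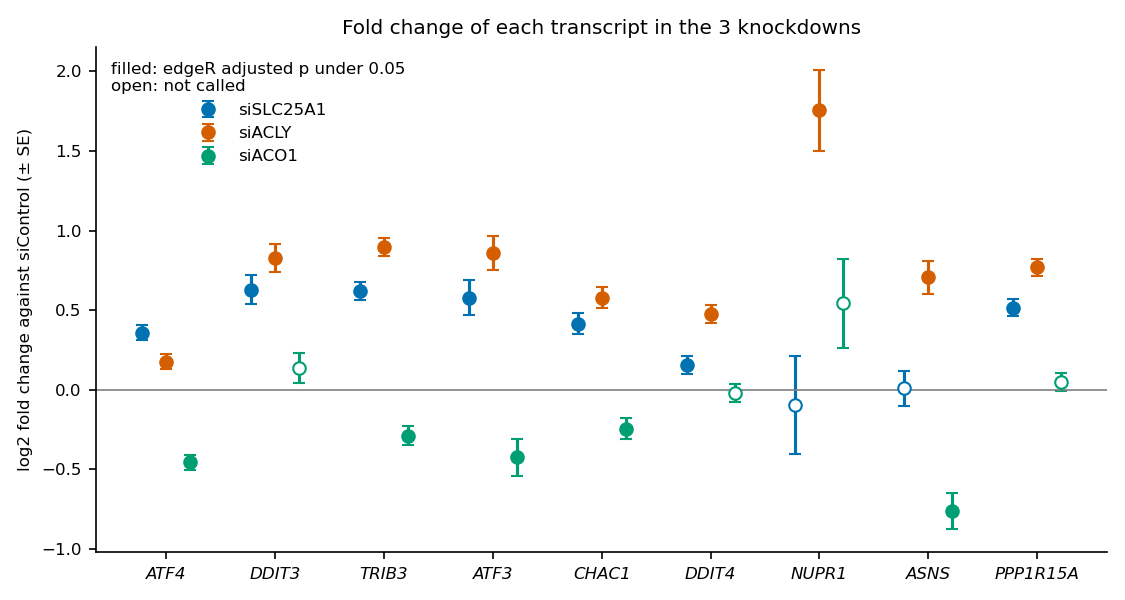
Log2 fold change against siControl (y axis) of the 9 tested members (x axis) in the 3 knockdowns, with bars of 1 standard error from the edgeR fit. Filled points have an adjusted p under 0.05 and open points do not. ATF4 is the only member whose siSLC25A1 point (0.36) lies above its siACLY point (0.18).

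The direct test between the knockdowns showed that ATF4 mRNA and the mRNAs of its targets were ordered differently. Between siSLC25A1 and siACLY, 8 of 9 members were called (33.8% of all genes). ATF4 was higher in siSLC25A1 (log2 difference 0.18, SE 0.05, edgeR adjusted p = 0.00305). In this direction 17.5% of all genes were called. The other 7 called members were lower in siSLC25A1 than in siACLY, where 16.3% of all genes were called lower. NUPR1 differed most (-1.85, SE 0.27, edgeR adjusted p = 2.88e-06), then ASNS (-0.70, SE 0.10, adjusted p = 5.31e-06), DDIT4 (-0.32, SE 0.05, adjusted p = 7.91e-05), TRIB3 (-0.27, SE 0.06, adjusted p = 0.000483) and PPP1R15A (-0.25, SE 0.05, adjusted p = 0.000363). The differences of ATF3 (-0.28, SE 0.10, edgeR adjusted p = 0.0362) and CHAC1 (-0.16, SE 0.06, adjusted p = 0.0440) were close to the threshold. That of DDIT3 (-0.20, SE 0.09, adjusted p = 0.0788) missed it. At a log2 difference of at least 0.5, NUPR1 and ASNS were the 2 members called (9.6% of all genes). The ATF3 call was lost when siSLC25A1 replicate 1 or 2 or any 1 of the siACLY libraries was left out (edgeR adjusted p = 0.0600 to 0.140). The CHAC1 call was lost without any 1 of the siSLC25A1 or siACLY libraries, siControl replicate 2 or 3, or siACO1 replicate 1 (adjusted p = 0.0536 to 0.174). DDIT3 was called lower without siSLC25A1 replicate 2 (-0.25, edgeR adjusted p = 0.0492) or without siACO1 replicate 3 (-0.19, adjusted p = 0.0497). It was also called lower with library totals (-0.24, adjusted p = 0.0324) and when the 2 groups were fitted alone (-0.20, adjusted p = 0.0435).

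Against ACO1 knockdown, both other knockdowns held the members higher. Between siACLY and siACO1 all 9 were called higher in siACLY, where 21.4% of all genes were. The largest differences were those of ASNS at 1.47 (SE 0.11, edgeR adjusted p = 7.75e-12), ATF3 at 1.28 (SE 0.11, adjusted p = 1.37e-10), NUPR1 at 1.21 (SE 0.24, adjusted p = 0.000168) and TRIB3 at 1.18 (SE 0.06, adjusted p = 5.59e-14), and the smallest that of DDIT4 at 0.49 (SE 0.05, adjusted p = 1.23e-07). All but DDIT4 passed a difference of 0.5 (8 of 9, against 8.6% of all genes). Between siSLC25A1 and siACO1, 8 of 9 were called higher in siSLC25A1 (21.8% of all genes), led by ATF3 at 1.00 (SE 0.11, edgeR adjusted p = 3.05e-08), TRIB3 at 0.91 (SE 0.06, adjusted p = 5.66e-12) and ATF4 at 0.82 (SE 0.05, adjusted p = 2.78e-14). At a difference of at least 0.5 there were 5, ATF4, TRIB3, ATF3, CHAC1 and ASNS (6.74% of all genes). NUPR1 was the exception, with -0.64 (SE 0.30, edgeR adjusted p = 0.0852). DDIT4 had the smallest called difference, 0.18 (SE 0.06, edgeR adjusted p = 0.0131), and it was not called without siSLC25A1 replicate 3, siACO1 replicate 1 or siACO1 replicate 2 (0.13 to 0.16, adjusted p = 0.0549 to 0.0739).

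The count of each member was then divided by the ATF4 count of the same library, a ratio that does not depend on library scaling. Because ATF4 itself moved, the same ratio was taken for every tested gene as the background. In siACLY all 8 members lay above siControl in every library, against 11% of all genes. TRIB3 went from 35.7%, 33.7% and 35.3% of the ATF4 count in siControl to 58.4%, 55.6% and 58.3% in siACLY, and ASNS from 3.40%, 3.01% and 2.76% to 4.70%, 4.17% and 4.41%. NUPR1 went from 0.203%, 0.161% and 0.267% to 0.555%, 0.609% and 0.720%. Each of the 8 thus rose more than ATF4 did under ACLY knockdown. All 8 ratios were also lower in every siSLC25A1 library than in every siACLY library, as were those of 41.6% of all genes.

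In siSLC25A1, 4 of 8 members (DDIT3, TRIB3, ATF3 and PPP1R15A) lay above siControl relative to ATF4, where 1.62% of all genes did. TRIB3 was at 40.2%, 41.4% and 44.2% of the ATF4 count and PPP1R15A at 16.8%, 16.2% and 16.4%, against 14.9%, 14.4% and 14.99% in siControl. DDIT4 and ASNS lay below siControl, as did 64% of all genes: DDIT4 was at 68.1%, 67.3% and 71.0%, against 79.5%, 79.9% and 78.1%, and ASNS at 2.15%, 2.67% and 2.41%. In siACO1 the ratio of 6 of 8 members lay above siControl, a share near the 66.4% of all genes. ASNS, at 2.75%, 2.74% and 2.03%, was the 1 member below, where 2.8% of all genes were. The gap was small: the highest siACO1 library was at 2.755% and the lowest siControl library at 2.758%, and the difference was not tested. The ATF3 ratio, with group means of 1.83% in siControl and 1.86% in siACO1, overlapped between these groups.

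**Figure D3:**
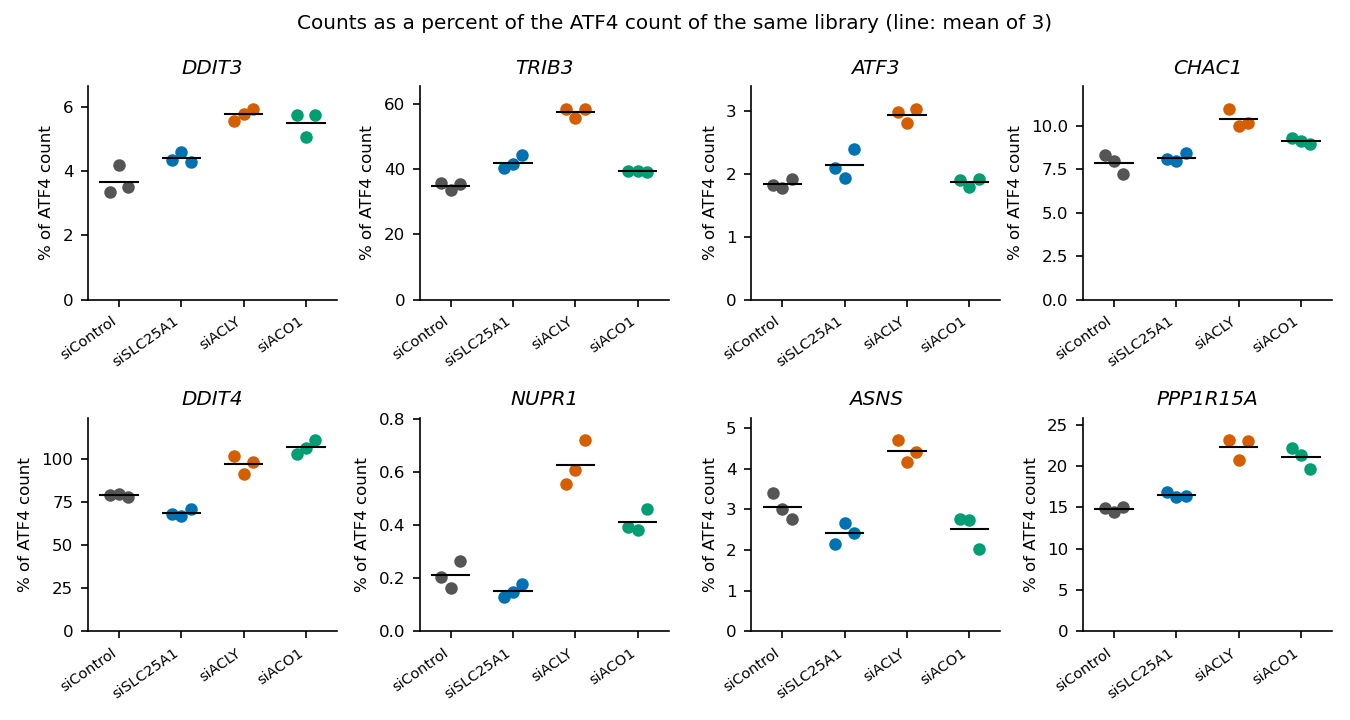
Count of each of 8 members as a percent of the ATF4 count in the same library (y axis, from 0, separate scale in each panel), 3 libraries per group with a line at the mean. All 8 ratios are higher in every siACLY library than in every siControl library, and ASNS alone is lower in siACO1 than in siControl (means of 2.51% and 3.06%).

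Distances between profiles were measured as the root mean square difference of centred log2 CPM over the 12 libraries, as a description only, since the libraries of a group share their treatment. Among members, TRIB3 and ATF3 were the closest of the pairs compared with ATF4, DDIT3 or TRIB3, at 0.06. The member nearest to ATF4 was CHAC1 at 0.16, and ATF4 was 0.27 from TRIB3 and 0.26 from ATF3. Among 9960 other genes that averaged 5 CPM or more, the 5 nearest to ATF4 were UAP1 (0.05), MTHFD1L (0.06), TMBIM1 (0.07), SH3RF2 (0.08) and SLC7A11 (0.08). SLC7A11, the cystine importer that supplies glutathione synthesis, had log2 fold changes of 0.38, 0.16 and -0.44 in siSLC25A1, siACLY and siACO1. MTHFD1L, a mitochondrial folate enzyme, had 0.28, 0.08 and -0.46. The 5 nearest to DDIT3 were TRPC1 (0.11), CAPN5 (0.13), VEPH1 (0.13), INPP1 (0.13) and ZSWIM6 (0.13). The 5 nearest to TRIB3 were SERPINB8 (0.10), CTH (0.12), CORO6 (0.12), GLYCTK (0.12) and SLC1A4 (0.13), of which CTH makes cysteine by transsulfuration and SLC1A4 carries neutral amino acids.

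The other genes of the pathway were taken from lists, starting upstream of ATF4. Their counts are read against the shares of all genes called higher and lower, 10.3% and 9.27% in siSLC25A1, 18.4% and 18.3% in siACLY, and 17.8% and 19.3% in siACO1. The first list (15 genes) holds the eIF2 kinases, the subunits of eIF2 and eIF2B, the phosphatase subunit PPP1R15B, and DELE1 and OMA1, which relay mitochondrial stress. It had 1 called higher and 3 lower in siSLC25A1, 3 higher and 4 lower in siACLY, and 2 higher and 6 lower in siACO1, with medians of -0.05, -0.05 and 0.01. In siACLY these shares, 20% higher and 26.7% lower, were close to those of all genes. EIF2AK3, which encodes the ER stress sensor PERK, was the gene that rose in siSLC25A1 (log2 fold change 0.45, SE 0.09, edgeR adjusted p = 0.000625). EIF2S3, the gamma subunit of eIF2, fell by 0.15, 0.18 and 0.39 on the log2 scale in the 3 knockdowns (edgeR adjusted p = 0.00420, 0.000192 and 1.22e-09). Phosphorylation of eIF2 was not measured.

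Of 9 bZIP partners and relatives of ATF4, 3 were called higher and 1 lower in siSLC25A1, 4 higher and 2 lower in siACLY, and 0 higher and 8 lower in siACO1, where the median was -0.48. The lower share in siACO1 was 88.9%, against 19.3% of all genes, and that in siACLY, 22.2%, was near the 18.3% of all genes. NFE2L2, which encodes the antioxidant factor NRF2, fell in siACO1 (-0.64, SE 0.05, edgeR adjusted p = 2.35e-11). BATF3, a low transcript that lies 65640 bases from ATF3, rose in siACLY (1.49, SE 0.35, edgeR adjusted p = 0.00108). In siACO1 it was -1.33 (SE 0.48, adjusted p = 0.0284), a call that was lost without siControl replicate 2 or 3 or siACO1 replicate 1 or 3 (-1.40 to -1.09, adjusted p = 0.0561 to 0.111).

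The amino acid supply and tRNA charging genes (24 genes) mostly fell in ACO1 knockdown, where ASNS had also fallen. In siACO1, 20 of 24 were called lower (83.3%, against 19.3% of all genes) and 1 higher (SLC38A2), with a median of -0.43. In siSLC25A1, 7 were higher and 1 lower (29.2% and 4.17%, median 0.07), against 10.3% and 9.27% of all genes. In siACLY 9 were higher and 6 lower (37.5% and 25%, median 0.04), against 18.4% and 18.3%. PHGDH, the first enzyme of serine synthesis, fell to a mean of 131 CPM in siACO1 from 271 CPM in siControl (-1.05, SE 0.06, edgeR adjusted p = 8.04e-11). It was -0.16 in siSLC25A1 (adjusted p = 0.0673; called without siSLC25A1 replicate 2 or 3, at -0.22 and -0.21) and -0.08 in siACLY (adjusted p = 0.305). ALDH1L2, a mitochondrial folate enzyme, rose in siACLY (0.86, SE 0.11, edgeR adjusted p = 1.74e-07) and fell in siACO1 (-0.99, SE 0.12, adjusted p = 2.19e-07), as ASNS did.

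Of 13 further stress outputs of ATF4 and CHOP, 11 were tested. In siACLY 8 were called higher and 0 lower (median 0.28), against 18.4% and 18.3% of all genes. In siSLC25A1 5 were higher and 1 lower (median 0.18), against 10.3% and 9.27%, and in siACO1 1 higher and 4 lower (median -0.05), against 17.8% and 19.3%. GDF15, a stress hormone, rose in siACLY (1.06, SE 0.16, edgeR adjusted p = 1.81e-05). Its 0.45 in siSLC25A1 missed the threshold (adjusted p = 0.0695), and without siSLC25A1 replicate 1 it passed (0.63, adjusted p = 0.00857), as it did without siACO1 replicate 3 (0.45, adjusted p = 0.0214). VLDLR, a lipoprotein receptor, rose in siACLY (0.40, SE 0.11, edgeR adjusted p = 0.00585) and fell in siACO1 (-0.95, SE 0.13, adjusted p = 8.51e-07). It was also called higher in siSLC25A1 (0.35, SE 0.12, edgeR adjusted p = 0.0319), a call lost without siControl replicate 1 or 3 or siSLC25A1 replicate 2 or 3 (0.19 to 0.38, adjusted p = 0.0504 to 0.311). SQSTM1, the 1 gene called lower in siSLC25A1, had 2479 counts over 12 libraries, and MGAT4B and MRNIP beside it had 13 and 4. Whether its reads were counted in full was not tested.

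The ER chaperones and the ATF6 and IRE1 branches of the unfolded protein response (17 genes) had another order across the knockdowns. In siSLC25A1 14 were called higher and 0 lower (median 0.32), against 10.3% and 9.27% of all genes. In siACLY 4 were higher and 3 lower (23.5% and 17.6%, median 0.04), near the 18.4% and 18.3% of all genes, and in siACO1 2 higher and 3 lower (11.8% and 17.6%, median 0.02), against 17.8% and 19.3%. In the direct comparison 12 of 17 were higher in siSLC25A1 than in siACLY and 1 was lower (70.6% and 5.88%), against 17.5% and 16.3% of all genes, while 7 of 9 members were lower. MANF, a secreted ER stress protein, rose in siSLC25A1 (0.61, SE 0.13, edgeR adjusted p = 0.00819) and was 0.04 in siACLY (adjusted p = 0.839). HERPUD1, of the degradation machinery of the ER, rose in siSLC25A1 (0.61, SE 0.08, edgeR adjusted p = 3.87e-05) and in siACLY (0.36, SE 0.08, adjusted p = 0.00184). HYOU1, which was tested but not called in siSLC25A1, had 371 counts over 12 libraries. Whether the reads of HYOU1 were counted in full was not tested.

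Other regulators can also induce some members, so their targets were counted beside them, and their part in the members' changes was not tested. Of 11 p53 targets tested, 2 were higher and 2 lower in siSLC25A1, 3 and 2 in siACLY, and 2 and 3 in siACO1. As shares, 18.2% and 18.2%, 27.3% and 18.2%, and 18.2% and 27.3% stood against 10.3% and 9.27%, 18.4% and 18.3%, and 17.8% and 19.3% of all genes, so several were near the background. CDKN1A, the p21 cell cycle inhibitor, rose from 1.27 to 3.91 CPM in siSLC25A1 and 3.60 CPM in siACLY (log2 fold changes 1.63 and 1.52, edgeR adjusted p = 1.46e-07 and 1.43e-07). GADD45A, which is on this list and among the stress outputs, rose in siSLC25A1 (0.74, SE 0.08, edgeR adjusted p = 7.40e-06) and siACLY (0.35, SE 0.08, adjusted p = 0.00248) and fell in siACO1 (-0.35, SE 0.08, adjusted p = 0.00319). Of 10 hypoxia targets, 3, 4 and 1 were higher and 0, 0 and 3 lower in siSLC25A1, siACLY and siACO1, where 10.3%, 18.4% and 17.8% of all genes were higher and 9.27%, 18.3% and 19.3% lower. NDRG1 had log2 fold changes of 0.49, 0.71 and -1.01 (edgeR adjusted p = 0.000134, 1.32e-07 and 2.40e-09). SLC2A1, the glucose carrier GLUT1, had 0.24, 0.24 and 0.11, the last of which was not called in 4 of 12 omissions of a library (siControl replicate 1, 2 or 3 or siACO1 replicate 3, log2 fold change 0.07 to 0.12).

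Of 8 targets of the glucocorticoid receptor, a known inducer of DDIT4, 3 were higher in siSLC25A1, 6 in siACLY and 5 in siACO1, with 0, 0 and 1 lower. These are 37.5%, 75% and 62.5% higher, against 10.3%, 18.4% and 17.8% of all genes. The list median was 0.11 in siSLC25A1, 0.21 in siACLY and 0.30 in siACO1. TSC22D3 (GILZ) rose most in siACLY, from 1.63 to 9.81 CPM (2.57, SE 0.17, edgeR adjusted p = 6.52e-13). It was also called higher in siSLC25A1 (0.76, edgeR adjusted p = 0.00546) and siACO1 (0.79, adjusted p = 0.00143). KLF9 rose in siACLY as well (0.56, SE 0.10, adjusted p = 5.94e-05). The immediate early genes, which AP-1 and growth signals drive and to which ATF3 is sometimes counted, took another course: 6 of 7 tested were higher in siSLC25A1 and 7 of 7 in both siACLY and siACO1, against the same 10.3%, 18.4% and 17.8% of all genes. FOSB had log2 fold changes of 2.16, 3.30 and 4.40 in siSLC25A1, siACLY and siACO1 (edgeR adjusted p = 4.89e-06, 1.71e-09 and 1.35e-11), and FOS had 0.70, 1.38 and 2.66 (adjusted p = 0.0169, 5.46e-05 and 1.44e-07). The siSLC25A1 call of FOS was lost without siSLC25A1 replicate 1 or 3 (0.62 and 0.71, adjusted p = 0.0835 and 0.0551). ATF3 was called higher in siSLC25A1 and siACLY and lower in siACO1, where FOS and FOSB were highest. A link between them was not tested.

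**Figure D4:**
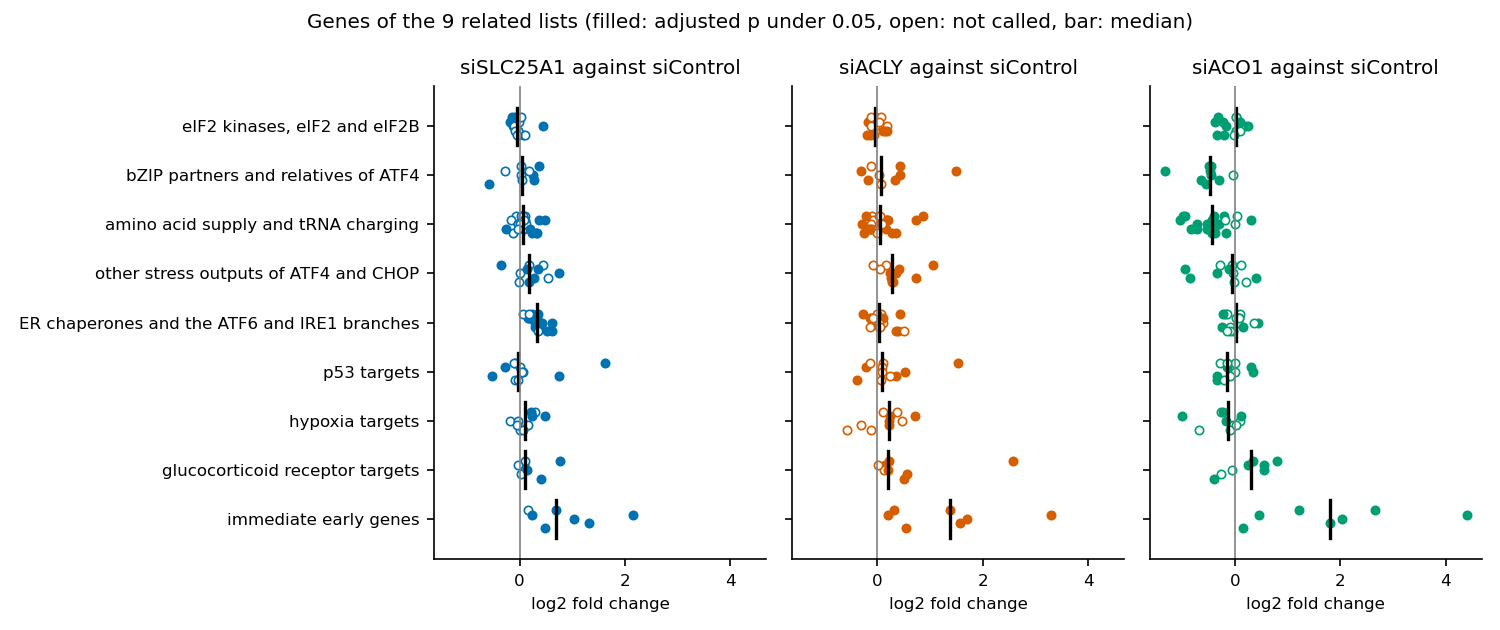
Log2 fold change against siControl (x axis, same scale in the 3 panels) of each tested gene of the 9 related lists, filled where the edgeR adjusted p was under 0.05, with a bar at the list median. The ER chaperone list lies to the right in siSLC25A1 (median 0.32), and the amino acid supply list lies to the left in siACO1 (median -0.43).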

How the data were processed

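The deposited table holds raw read counts per gene for 12 libraries. Per the submitters' processing notes, CASAVA, FastQC, Trim Galore, STAR 2.7.0e and DESeq2 were used with the builds GRCh38 and GRCm39. Their roles, the counting tool, the annotation release and the strand setting are not given in the sources used here. Of 70116 identifiers, 62700 (89.4%) matched a symbol, and rows without one held 0.132% of counts. Genes passing edgeR's default filter (16197) were tested with edgeR 4.0.16 (R 4.3.3, limma 3.58.1; robust quasi-likelihood, TMM scaling, all 4 groups, 8 residual degrees of freedom, Benjamini-Hochberg adjustment, called at an adjusted p under 0.05). The common biological coefficient of variation was 4.89%. The fit was checked on simulated counts. DESeq2 1.42.0 was an alternative, besides other scalings, filters, group subsets, a replicate block and omission of each library.

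Exon and 31-base word overlaps came from GENCODE 29, promoters from RefSeq. All 10 members are named, with, for each list, the 2 called genes with the largest change, given a group mean of 1 CPM or more, and the 5 nearest profiles of ATF4, DDIT3 and TRIB3. The members and lists were chosen with earlier results of these data known.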

Additional observations from a re-analysis of the deposited data

How the results depend on the processing

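The tests on the 9 members gave 54 results, of which 46 were called, and 41 of these kept their call and direction in all 19 alternatives. The 5 that lost it are those of DDIT4, CHAC1 and ATF3 whose values without single libraries stand above. ATF3 and CHAC1 between siSLC25A1 and siACLY were also lost with DESeq2 (adjusted p = 0.0853 and 0.0996) and without the filter (0.0522 and 0.0583), and CHAC1 with median-of-ratios scaling (0.0550). DDIT3 between siSLC25A1 and siACLY gained a call in 4 alternatives, given above. Requiring a log2 fold change of at least 0.5 left 4 members called higher in siSLC25A1, 7 in siACLY, 1 lower in siACO1, 2 called between siSLC25A1 and siACLY, 5 between siSLC25A1 and siACO1 and 8 between siACLY and siACO1. Leaving out each library gave 6 to 7 members higher in siSLC25A1, 9 higher in siACLY, 4 to 6 lower in siACO1 and 6 to 9 called between siSLC25A1 and siACLY.

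Values that changed sign were not called and lay near 0. ASNS in siSLC25A1 was -0.00152 without the filter and -0.10 to 0.13 over omissions of a library. DDIT4 in siACO1 was 0.0285 with library totals and -0.11 to 0.0224 over omissions. Over the same omissions NUPR1 in siSLC25A1 ranged from -0.29 to 0.10 and PPP1R15A in siACO1 from -0.00537 to 0.0820. The ranges of other named genes that crossed 0 were, in siSLC25A1, -0.00931 to 0.39 (BATF3), -0.00383 to 0.0831 (NFE2L2) and -0.0471 to 0.0869 (KLF9), in siACLY -0.00817 to 0.0916 (MANF) and in siACO1 -0.0836 to 0.23 (GDF15). The cause was not tested.

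Groups share replicate numbers, but deviations of same-numbered libraries correlated at -0.03 to 0.06, so the numbers were not taken to pair the samples. With the replicate number as a block, 7 members were higher in siSLC25A1, 9 higher in siACLY and 5 lower in siACO1, as without it. Depth limits NUPR1, which had 16 to 92 counts per library.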
